A study of Homo sapiens with 3 samples.

Results

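The ZNF genes of chromosome 19 are the protein-coding genes there whose symbol is ZNF followed by digits and an optional letter in RefSeq on GRCh38. There were 246 of them, which was 17.0% of the 1451 protein-coding genes of the chromosome and part of 20037 protein-coding genes on 24 chromosomes. They were examined in H1299, an established human lung cancer cell line that the labels describe as adenocarcinoma, with no treatment given in the labels. The series used CUT&RUN, which sequences the DNA that a nuclease, tethered by an antibody, releases around a protein or histone mark. It holds 3 libraries, 1 each for the transcription factor SP1, for histone H3 acetylated at lysine 27 (H3K27ac) and for a control IgG. The SP1 and H3K27ac libraries are described here, and the IgG library was not analysed here. Replicates were lacking, with 1 library for each antibody, and the comparisons below therefore carry no p-value.

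ZNF genes encode proteins with zinc fingers, most often of the C2H2 type, in which each finger contacts a few bases of DNA. Many of those on chromosome 19 also carry a KRAB domain, which recruits the corepressor TRIM28 and through it the histone methyltransferase SETDB1, and many silence transposable elements. They arose largely by tandem duplication and therefore lie in clusters of related genes. SP1 is itself a zinc-finger protein of the SP and KLF family and binds GC boxes, which are common in promoters rich in CpG dinucleotides. H3K27ac marks active promoters and enhancers.

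For every gene the highest-scoring deposited summit within 1000 bases of either end of the gene span, called a gene end, was taken in each list. A summit is the single base at which a called peak is highest. Its score is on a −log10 scale, and whether a p-value or a q-value lies behind it could not be told from the files. It says how firmly a peak was called and was compared only within a list. For SP1 there were 5570 summits (median score 6.17), of which 628 lay on chromosome 19. For H3K27ac there were 3201, of which 75 lay on that chromosome. Depth is unknown for both libraries, since no reads are counted in the files. Intervals of shares are 95% Wilson intervals and those of differences 95% Newcombe intervals. They cover counting error only and treat genes as independent, although neighbours can share a summit and duplicated genes share sequence.

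SP1 was called at an end of 76 of the 246 ZNF genes, or 30.9% (25.5 to 36.9), where 13.7% of all protein-coding genes had such a summit. Among the 1205 other protein-coding genes of chromosome 19 it was called at 362, or 30.04% (27.5 to 32.7). The ZNF genes thus stood 0.853 percentage points above their chromosome's other genes, with an interval of the difference from -5.20 to 7.39 that includes 0. Among the 263 ZNF genes of other chromosomes SP1 was called at 48, or 18.3% (14.1 to 23.4). The share on chromosome 19 was 12.6 points higher than that (5.17 to 19.99). The ZNF genes had 84 of the 628 SP1 summits of the chromosome at their ends, or 13.4%.

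At the median, the summits of the ZNF genes scored lower than those of the other genes of the chromosome and about as high as those of all protein-coding genes. The 76 best scores of the ZNF genes ran from 3.08 to 38.1, with a median of 8.27 and quartiles of 6.10 and 13.6. The 362 other genes with a summit ran from 3.17 to 61.5, with a median of 11.2 and quartiles of 7.55 and 17.5. A score above 10 was reached by 31 of the 76 ZNF genes (40.8%) and by 207 of the 362 other genes (57.2%), a difference of -16.4 points (-27.9 to -4.04). Over all 2752 protein-coding genes with a summit the median was 8.56, and 38.05% passed 10. The upper tail differed. A score above 20 was reached by 11 of the 76 ZNF genes (14.5%, 8.28 to 24.1) and 67 of the 362 other genes (18.5%, 14.8 to 22.8). Of all 2752 genes 8.14% passed 20 (7.18 to 9.22), and of the 48 ZNF genes of other chromosomes 1 did (2.08%, 0.369 to 10.9). The 48 ZNF genes of other chromosomes had a median of 7.58 and a highest score of 22.1. Of those 48 genes, 14 passed 10 (29.2%), which was 11.6 points below the share of the ZNF genes of chromosome 19, within an interval that includes 0 (-5.80 to 27.3).

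**Figure D1:**
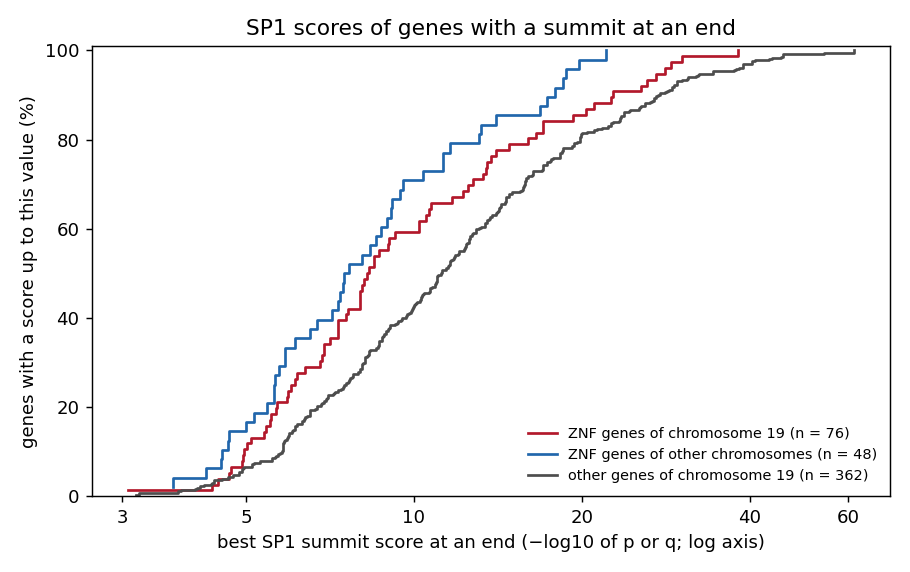
Cumulative share (vertical axis, percent) of genes with a best SP1 summit score (horizontal axis, −log10 of p or q, log axis) up to each value, for genes with a summit at an end. At the median the ZNF genes of chromosome 19 (8.27) lie left of the other genes of the chromosome (11.2) and closer to the ZNF genes of other chromosomes (7.58). Above a score of 20 lay 14.5%, 18.5% and 2.08% of these.

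The promoters below show what lay at the starts of genes with strong, weaker and no SP1 summits. They come from a RefSeq table of GRCh38.p14 that gives 250 bases before and 50 bases after each listed start, and 216 of the 246 genes matched it. Where a gene had several listed starts the outermost was used. GC boxes (GGGCGG, or CCGCCC where the box lies on the other strand) are in capitals, and all else is in lower case. ZNF274, ZNF791, ZNF761 and ZNF91 were chosen after their values were seen.

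The first group shows strong SP1 summits with several GC boxes. ZNF808 (chr19:52527418-52527717, plus strand) had a score of 38.1, and ZNF274 (chr19:58182811-58183110, plus strand) had 16.0.
ZNF808: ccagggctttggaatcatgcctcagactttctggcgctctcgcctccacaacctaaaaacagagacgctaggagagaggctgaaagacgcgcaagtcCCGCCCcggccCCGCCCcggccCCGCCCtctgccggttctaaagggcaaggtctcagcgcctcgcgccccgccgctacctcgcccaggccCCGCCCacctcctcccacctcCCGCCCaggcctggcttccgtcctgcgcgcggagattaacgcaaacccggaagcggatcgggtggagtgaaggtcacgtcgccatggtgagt
ZNF274: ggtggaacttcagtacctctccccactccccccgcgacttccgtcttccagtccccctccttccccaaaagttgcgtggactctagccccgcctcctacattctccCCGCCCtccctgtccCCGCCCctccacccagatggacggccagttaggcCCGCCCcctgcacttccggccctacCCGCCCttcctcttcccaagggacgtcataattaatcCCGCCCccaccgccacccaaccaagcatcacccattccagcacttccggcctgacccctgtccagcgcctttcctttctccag
The second group shows strong summits with no GC box in the window. ZNF566 (chr19:36489512-36489811, minus strand) had a score of 22.8, and ZNF260 (chr19:36528222-36528521, minus strand) had 20.4.
ZNF566: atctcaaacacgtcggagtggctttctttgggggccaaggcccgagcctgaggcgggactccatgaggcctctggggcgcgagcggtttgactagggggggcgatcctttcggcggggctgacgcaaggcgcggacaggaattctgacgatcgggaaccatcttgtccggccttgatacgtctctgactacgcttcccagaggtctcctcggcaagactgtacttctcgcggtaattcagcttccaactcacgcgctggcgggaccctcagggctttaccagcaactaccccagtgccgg
ZNF260: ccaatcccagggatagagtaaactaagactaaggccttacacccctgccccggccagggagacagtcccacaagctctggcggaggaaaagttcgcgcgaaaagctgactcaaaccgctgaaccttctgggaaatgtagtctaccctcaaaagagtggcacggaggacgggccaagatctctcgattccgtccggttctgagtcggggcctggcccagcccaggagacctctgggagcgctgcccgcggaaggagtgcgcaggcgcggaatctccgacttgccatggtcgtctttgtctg
The third shows a start shared by neighbours. ZNF791 (chr19:12610670-12610969, plus strand) runs away from ZNF490 on the minus strand, and both had the same summit with a score of 7.30.
ZNF791: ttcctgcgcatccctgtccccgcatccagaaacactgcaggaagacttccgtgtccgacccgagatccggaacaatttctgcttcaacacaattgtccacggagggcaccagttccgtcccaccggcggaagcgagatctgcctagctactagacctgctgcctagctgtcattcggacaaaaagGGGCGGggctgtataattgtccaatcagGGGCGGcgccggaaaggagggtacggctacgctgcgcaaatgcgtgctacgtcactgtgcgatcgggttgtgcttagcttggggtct
The last group had no SP1 summit. These are ZNF761 (chr19:53431734-53432033, plus strand), in the same cluster as ZNF808, and ZNF91 (chr19:23395422-23395721, minus strand).
ZNF761: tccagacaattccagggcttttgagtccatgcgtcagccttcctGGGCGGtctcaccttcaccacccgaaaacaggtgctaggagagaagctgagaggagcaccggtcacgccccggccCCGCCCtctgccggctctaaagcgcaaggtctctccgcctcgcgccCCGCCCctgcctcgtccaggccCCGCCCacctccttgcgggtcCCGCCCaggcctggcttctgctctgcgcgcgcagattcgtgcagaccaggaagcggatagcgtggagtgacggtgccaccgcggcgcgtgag
ZNF91: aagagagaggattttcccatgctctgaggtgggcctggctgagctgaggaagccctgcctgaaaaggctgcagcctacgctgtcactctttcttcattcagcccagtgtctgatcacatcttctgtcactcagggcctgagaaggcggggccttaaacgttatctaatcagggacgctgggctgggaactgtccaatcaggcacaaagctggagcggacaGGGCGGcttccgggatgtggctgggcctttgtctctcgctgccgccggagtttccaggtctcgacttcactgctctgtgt
ZNF808 and ZNF761 each had 5 GC boxes and they had 29 and 28 CpG dinucleotides. Over 286 aligned bases their promoters were identical at 237, or 82.9%, yet SP1 was called at ZNF808 and not at ZNF761. The summits of ZNF808 and ZNF566 lay 305 and 252 bases upstream of the start, and those of ZNF274 and ZNF791 lay 163 and 81 bases downstream, all outside the printed window. That of ZNF260 lay 245 bases upstream, within it. ZNF91, a repressor of SVA retrotransposons, had 1 GC box and 11 CpG dinucleotides.

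The highest score was at ZNF808 (chromosome 19, 52527668 to 52568753), a KRAB zinc-finger gene needed for pancreas development in humans. Its summit at 52527363 lay 305 bases upstream of the listed start and ranked 44 of all 5570 SP1 summits. ZNF524 (55599574 to 55603138) scored 30.2 with a summit at 55599866. ZNF414 (8509678 to 8514167) scored 28.9 at 8514032, which is 135 bases downstream of its listed start. ZNF526 (42220312 to 42228201) scored 28.1 at 42220011, and the same summit lay at an end of its neighbour DEDD2. These 4 genes sit in 4 separate places of the chromosome, and both ZNF414 and ZNF526 lie outside the larger clusters defined below.

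The next 8 by score were ZNF699 (27.1), ZNF628 (26.2), ZNF559 (25.5), ZNF566 (22.8), ZNF146 (22.5), ZNF888 (21.1), ZNF260 (20.4) and ZNF333 (19.3). ZNF699 (9291140 to 9309838) and ZNF559 (9323772 to 9345871) are neighbours, with separate summits at 9310018 and 9323967. ZNF146 (36214723 to 36238768), whose protein consists almost wholly of zinc fingers, had its summit at 36214803. ZNF566 (36445119 to 36489561) and ZNF260 (36510687 to 36528271), the next members along the chromosome, had theirs at 36489813 and 36528516. These 3 genes had high scores next to each other, while the other 9 members with a summit in their cluster scored lower. ZNF888 (52904415 to 52923428) had its summit at 52923299, which was also at an end of the antisense transcript gene ZNF888-AS1. ZNF628 (55476617 to 55484487) had its summit at 55477083, and ZNF333 (14689787 to 14733742) had 2 summits, with the better at 14689975.

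**Figure D2:**
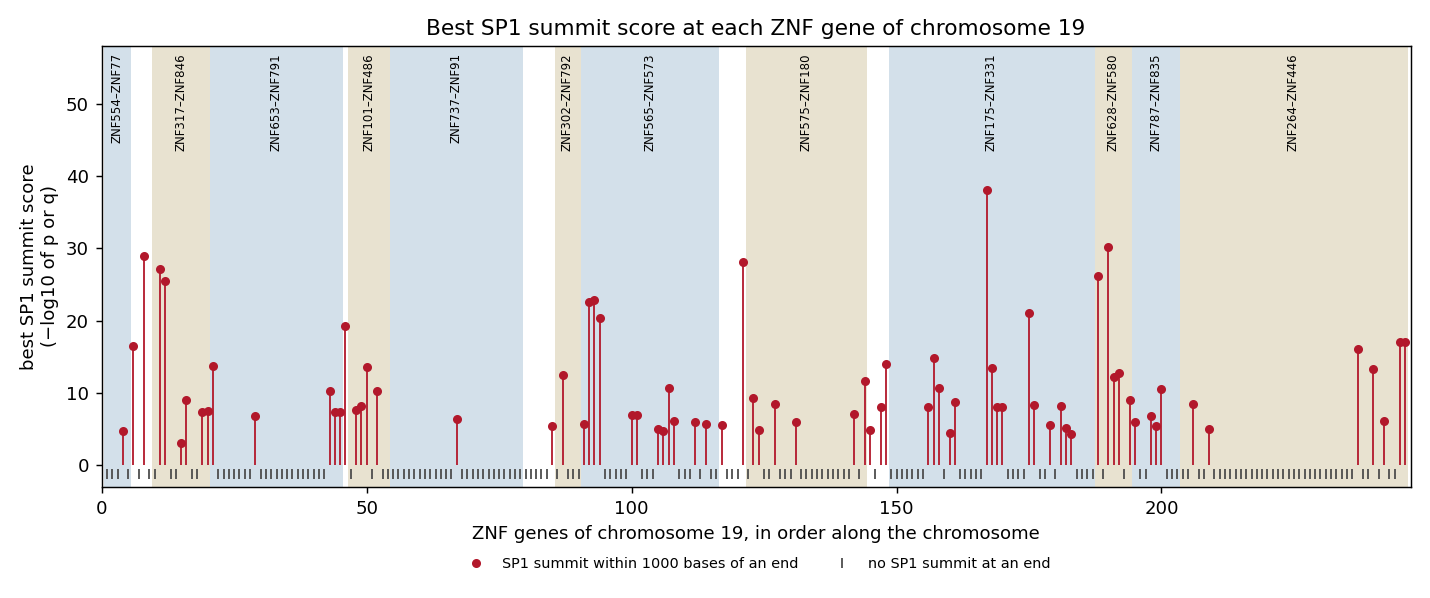
Best SP1 summit score (vertical axis, −log10 of p or q) at each of the 246 ZNF genes in their order along chromosome 19 (horizontal axis). Shaded bands are the 12 clusters, ticks below 0 are genes with no SP1 summit at an end, and the highest point is ZNF808 at 38.1.

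The distance limit of 1000 bases fell in a gap between members. Best summits of the 76 genes lay from 5 to 939 bases from an end, with a median of 182.5. The members nearest inside the limit of 1000 bases were ZNF114, at 939 bases with a score of 8.0, and ZNF560, at 821 bases with a score of 3.08. The nearest outside were ZNF581, at 2243 bases with a score of 8.98, and ZNF665, at 3226 bases with a score of 5.53. At least 2 summits at ends were found at 12 of the 76 genes.

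Where the strand was known, the summits lay at the start of the gene. The best summit was nearer the start end than the other end of the span in 62 of 66 ZNF genes (93.9%, 85.4 to 97.6) and in 280 of 316 other genes of the chromosome (88.6%, 84.6 to 91.7). In 58 of the 66 it lay within 1000 bases of a listed start. Of the other 8, ZNF565, ZNF766, ZNF580 and ZNF324 had it at the far end of the gene, and in ZNF560, ZNF846, ZNF43 and ZNF584 the span extends beyond the start listed in the table. The summits flanked the start. Of the 58, 18 lay more than 100 and up to 300 bases upstream, 1 lay in the 100 bases just upstream, 8 lay from 0 to 100 bases downstream, and 16 lay more than 100 and up to 200 bases downstream. The other genes showed the same gap, with 5 of 276 (1.81%) in the 100 bases just upstream, against 1 of 58 (1.72%) in the ZNF genes.

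The ZNF summits were found more evenly on both sides than those of the other genes of the chromosome, though the upstream intervals overlap narrowly. Upstream of the start lay 28 of 58 best summits of ZNF genes (48.3%, 35.9 to 60.8) and 183 of 276 of the other genes (66.3%, 60.5 to 71.6). Over 400 bases upstream lay 4 of 58 (6.90%, 2.71 to 16.4), against 62 of 276 (22.5%, 17.9 to 27.7). The ZNF genes of other chromosomes had 22 of 37 upstream (59.5%, 43.5 to 73.7) and 3 of 37 over 400 bases upstream (8.11%, 2.80 to 21.3). Few summits far upstream were thus not particular to the ZNF genes of chromosome 19. The sides of a summit depend on which start the table lists.

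**Figure D3:**
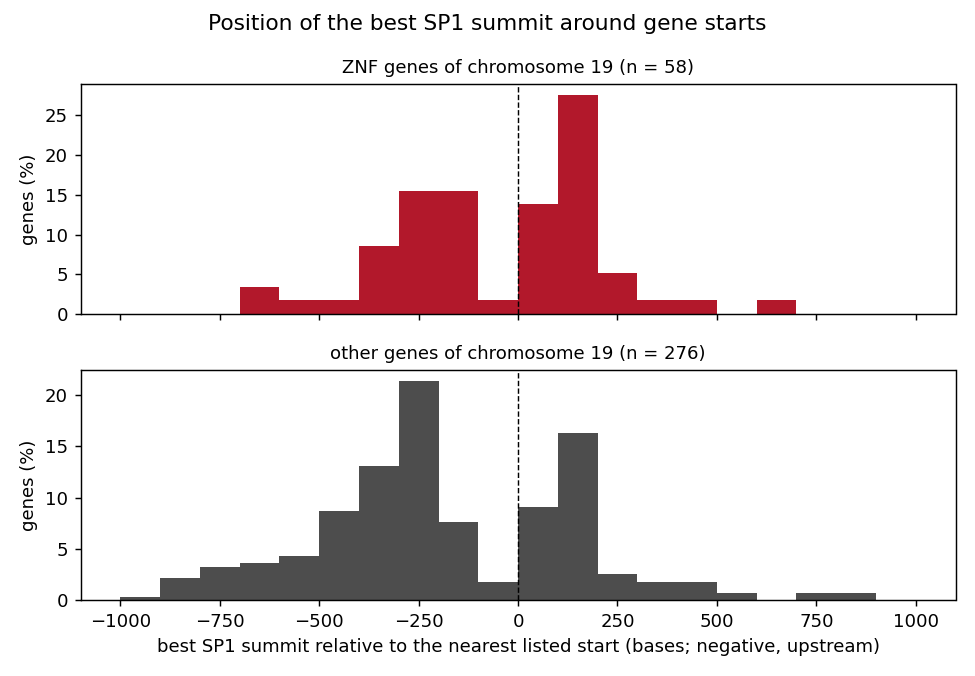
Share of genes (vertical axis, percent) by the position of the best SP1 summit relative to the nearest listed start (horizontal axis, bases in bins of 100, negative upstream), for 58 ZNF genes of chromosome 19 (top) and 276 other genes of the chromosome (bottom). Both show few summits in the 100 bases just upstream of the start, and over 400 bases upstream there are 6.90% of the ZNF genes against 22.5% of the others. The ZNF genes of other chromosomes, not drawn, had 8.11% there.

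ZNF genes shared their summits with other protein-coding genes less often than the other genes of the chromosome did. At 17 of the 76 genes (22.4%, 14.5 to 32.9) the best summit also lay at an end of another protein-coding gene, against 163 of 362 other genes of the chromosome (45.0%, 39.98 to 50.2). At a further 16 ZNF genes the summit lay at an end of genes of other kinds only, each with at least 1 long noncoding RNA gene, such as ZNF566-AS1, ZNF426-DT and ZNF460-AS1. At 43 no other gene had an end there. The 76 genes had 73 distinct best summits. The 3 used by 2 ZNF genes each were at 12611001, which is 81 bases inside ZNF791 and beyond the start end of ZNF490 (7.30), at 36850704 where ZNF790 and ZNF345 overlap (6.89), and at 58475917 between ZNF324 and ZNF446 (17.0). Other partners were ECSIT beside ZNF653 (13.7), VRK3 beside ZNF473 (14), FIZ1 beside ZNF524 and GEMIN7 beside ZNF296 (4.92). The protein of ZNF473 takes part in histone pre-mRNA processing.

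Members with under 250 kb between neighbours were joined into clusters. This gave 26 groups, of which 11 were single genes and 12 had at least 5 members. The 12 larger clusters held 226 genes, and 67 of these had an SP1 summit (29.6%, 24.1 to 35.9). Of the 20 genes outside them 9 had one (45.0%, 25.8 to 65.8), with a median score of 14, against 8.24 inside. The 67 other protein-coding genes within the cluster spans had a summit in 11 cases (16.4%, 9.42 to 27.1). This was below the share of all the ZNF genes by 14.5 points (2.53 to 23.7), while the 1138 other genes of the chromosome outside the spans had summits in 30.8% (28.2 to 33.6). The 67 genes inside the spans include olfactory receptor genes such as OR7D4, formyl peptide receptor genes such as FPR1 and readthrough genes such as ZNF559-ZNF177. They also include zinc-finger genes with other names, such as ZFP14, ZSCAN5A and ZIK1, with no SP1 summit, and ZSCAN22, with one (8.76). The promoters of the 67 had a median of 13 CpG dinucleotides, against 20 in the ZNF genes of the clusters.

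SP1 was unevenly spread over the clusters. At the high end stood the cluster from ZNF628 to ZNF580 (55476617 to 55645623), with 5 of 7 members (71.4%, 35.9 to 91.8) and a median score of 12.8. The cluster from ZNF317 to ZNF846 (9140397 to 9786160) had 6 of 11 (54.5%, 28.0 to 78.7), and that from ZNF101 to ZNF486 (19668153 to 20200488) had 4 of 8 (21.5% to 78.5%). The cluster from ZNF565 to ZNF573 (36182060 to 37779586) had 12 of 26 (46.2%, 28.8 to 64.5). The cluster from ZNF787 to ZNF835 (56087366 to 56671757) had 4 of 9 (44.4%, 18.9 to 73.3), and the one from ZNF175 to ZNF331 (51571283 to 53580269) had 15 of 39 (38.5%, 24.9 to 54.1). The intervals of these 6 clusters overlap, so their order is not settled.

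At the low end stood the cluster from ZNF737 to ZNF91 (20530276 to 23395471). It spans 2.87 Mb and holds 25 ZNF genes and no other protein-coding gene, and SP1 was called at 1 of them (4%, 0.710 to 19.5). Over the 221 ZNF genes elsewhere on the chromosome the share was 33.9% (28.0 to 40.4), an interval that does not overlap that of the cluster. The cluster was picked out by its low share, so this comparison does not test it. How reads that map to several places were handled is not known. The only gene of the cluster with a summit was ZNF43 (21804946 to 21852065), with a score of 6.39 at 21851924. The whole span of the cluster held 3 SP1 summits, or 1.05 per Mb. The other 11 clusters held 3.47 to 47.3 summits per Mb. The cluster from ZNF264 to ZNF446 (57191500 to 58489533), the largest by number of genes, had 7 of 43 (16.3%, 8.12 to 29.97). It held the longest run of consecutive members without a summit at an end, 27 genes from ZNF548 to ZNF329. Beyond that run 5 members had summits, ZNF274 (16.0), ZNF497 (13.3), ZNF584 (6.13), and ZNF324 and ZNF446 with their shared one. ZNF274 encodes a protein known to recruit SETDB1 to the 3′ ends of ZNF genes.

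The remaining clusters lay between. The cluster from ZNF653 to ZNF791 (11483429 to 12633834) had 5 of 25 members (8.86% to 39.1%), with ZNF653 highest at 13.7. The cluster from ZNF575 to ZNF180 (43530835 to 44500522) had 6 of 23 (26.1%, 12.5 to 46.5), with ZNF180 highest at 11.7. The clusters from ZNF554 to ZNF77 and from ZNF302 to ZNF792 had 1 of 5 each, ZNF57 (4.66) and ZNF181 (12.5). The highest members of the clusters from ZNF101 to ZNF486 and from ZNF787 to ZNF835 were ZNF253 (13.5) and ZNF471 (10.5). Clusters were joined by distance alone, and with a gap of 500 kb in place of 250 kb, which joins the ZNF737 to ZNF91 genes to their neighbours, the lowest share was 13.5% and the highest 56.2%.

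**Figure D4:**
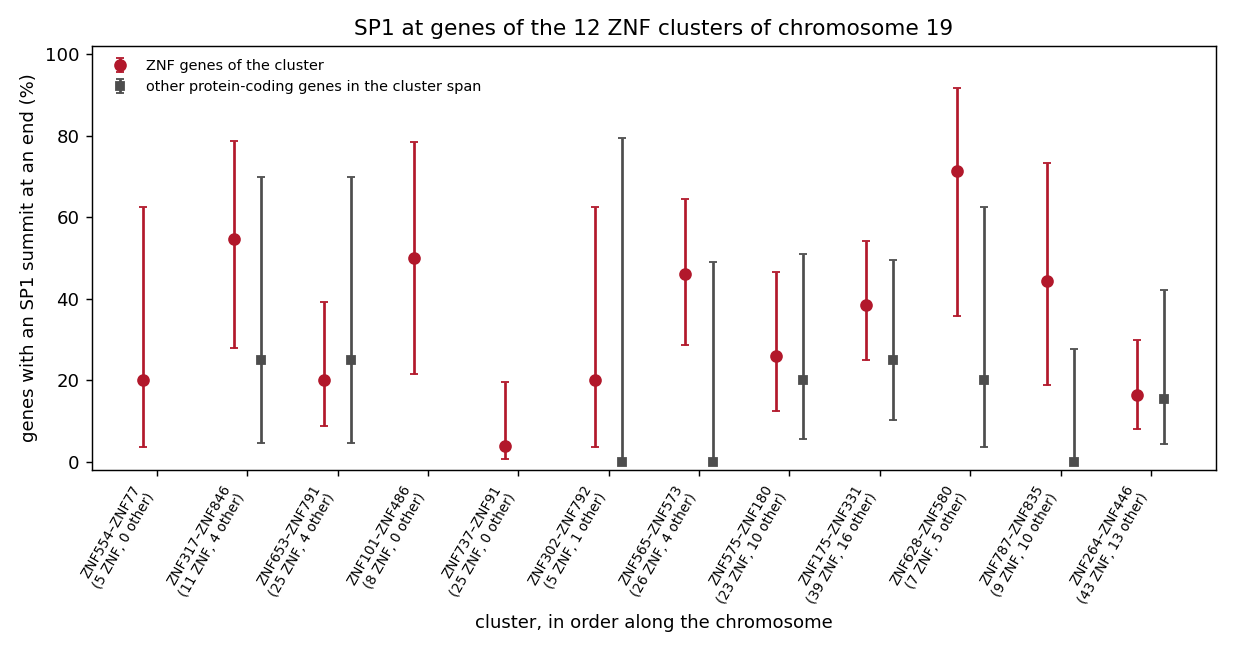
Share of genes with an SP1 summit at an end (vertical axis, percent, with 95% Wilson intervals) in the 12 ZNF clusters in chromosome order (horizontal axis), for ZNF genes (circles) and for other protein-coding genes in the same span (squares, absent where there are none). The other genes include zinc-finger genes with names other than ZNF. The cluster from ZNF737 to ZNF91 is lowest at 4% and the cluster from ZNF628 to ZNF580 highest at 71.4%.

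Promoter sequence, which had no part in choosing the genes, differed between ZNF genes with and without SP1. Genes with a summit are here those with one at either end of the span. In 58 of the 66 with a listed promoter the best summit lay within 1000 bases of a listed start. In the rest the promoter scored lay away from the best summit, here and in the steps below. The 150 without a summit at an end include ZNF320, ZNF331, ZNF442, ZNF444, ZNF581 and ZNF799. Each of these had an SP1 summit inside the span within 1000 bases of its listed start. A GC box stood in the promoter of 51 of 66 genes with a summit (77.3%, 65.8 to 85.7) and of 94 of 150 without one (62.7%, 54.7 to 70.0), where 58.3% of all protein-coding promoters in the table had one. The difference was 14.6 points (1.02 to 26.2), but its interval included 0 with a window of 500 bases (-0.131 to 25.6) and with summits above the list median (-1.28 to 26.2). It was 16.6 points (2.28 to 28.9) with only listed starts within 1000 bases of the span end. That setting, chosen after the data were seen, leaves out ZNF320 and the others named with it. The other genes of the chromosome gave 76.9% of 316 and 60.3% of 653. The longer box GGGGCGGGG, which contains the shorter one, was in the promoter of 34.8% of ZNF genes with a summit and 19.3% of those without. It was in 22.1% of all promoters. The median number of CpG dinucleotides in the 300 bases was 23.5 with a summit (quartiles 19 and 29) and 18 without (13 and 23).

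The share with SP1 was higher where promoters had more of either. It was 21.1% of 71 ZNF genes with no GC box, 27.4% of 73 with 1, 32.5% of 40 with 2, and 56.2% of 32 with 3 or more. By CpG dinucleotides it was 6.67% of 15 genes with under 10, 20.9% of 86 with 10 to 19, 37.9% of 87 with 20 to 29, and 14 of the 28 genes with 30 or more had a summit. Neighbouring steps overlap in their intervals, while the first and last GC box steps, and those by CpG, do not. In the other genes of the chromosome the share was 22.0%, 33.9%, 37.7% and 42.9% over the same steps of GC boxes. By CpG dinucleotides it was 8.53%, 30.3%, 52.7% and 39.1%, so that it was lower in the top step than in the one before. Genes with at least 20 CpG dinucleotides had a summit in 46.3% of 82 cases with a GC box (36.0 to 57.1) and in 27.3% of 33 without (15.1 to 44.2). Below 20 the shares were 20.6% of 63 with a GC box and 15.8% of 38 without. In the other genes of the chromosome with at least 20, the share was 45.1% of 443 with a GC box (40.6 to 49.8) and 47.9% of 73 without (36.9 to 59.2).

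**Figure D5:**
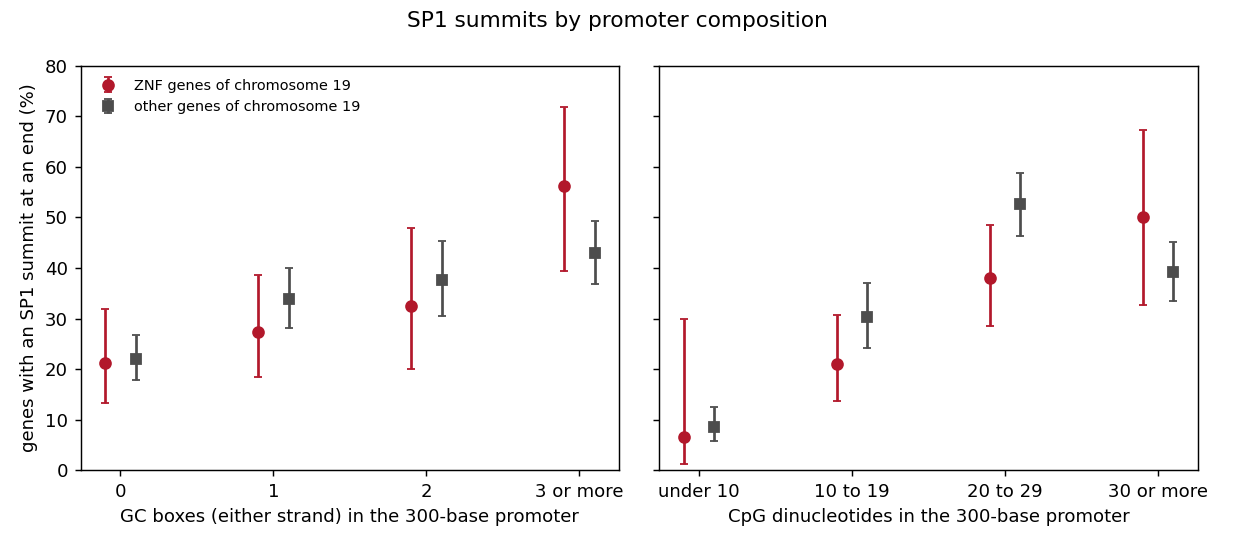
Share of genes with an SP1 summit at an end (vertical axis, percent, with 95% Wilson intervals) by the number of GC boxes (left) or CpG dinucleotides (right) in the 300-base promoter (horizontal axes), for ZNF genes (circles) and other genes of chromosome 19 (squares). For ZNF genes it runs from 21.1% to 56.2% over GC boxes and over CpG dinucleotides from 6.67% at under 10 to 14 of 28 genes at 30 or more.

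GC boxes and SP1 did not run together from cluster to cluster. In the cluster from ZNF565 to ZNF573 a GC box stood in 7 of 25 listed promoters (28.0%), yet SP1 was called at 12 of its 26 genes. Of the 11 with a listed promoter and a summit, 7 had no GC box, among them ZNF566, ZNF146 and ZNF260 with scores above 20. In the cluster from ZNF737 to ZNF91 a GC box stood in 16 of 19 promoters (84.2%), and SP1 was called at 1 of 25 genes. Those 19 promoters had a median of 10 CpG dinucleotides, against 21 over the 197 listed promoters of ZNF genes elsewhere, and all 19 had under 20. Among ZNF genes elsewhere with under 20, SP1 was called at 18 of 82 (22.0%, 14.4 to 32.1), against 1 of 19 in the cluster (5.26%, 0.935 to 24.6). These intervals overlap, and the part of CpG content in the low share was not tested. The 1 gene in the cluster, ZNF43, had its summit over 1000 bases from the listed start whose promoter was scored. So did ZNF560 among the 18. Of the 82, ZNF331, ZNF442 and ZNF799 counted as without a summit, though one lay within 1000 bases of their listed start. The cluster from ZNF101 to ZNF486 also had a median of 10 CpG dinucleotides, over 6 listed promoters, yet SP1 was called at 4 of its 8 genes. In the cluster from ZNF264 to ZNF446 the median was 21 over 40 listed promoters, and SP1 was called at 7 of 43 genes. Of the genes whose promoter had at least 4 GC boxes, 10 had a summit at an end, and 7, ZNF761 among them, had none. The 10 include ZNF584, whose summit lay over 1000 bases from its listed start.

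H3K27ac summits lay at few gene ends of any kind, and 75 of the 3201 in the list lay on chromosome 19. With so few, the absence of a summit does not tell whether a gene end carried the mark. One was called at an end of 2 of the 246 ZNF genes (0.813%, 0.223 to 2.92), where 0.848% of all protein-coding genes had such a summit, and at 3 of the 1205 other genes of the chromosome (0.249%, 0.0847 to 0.729). ZNF440 (11814273 to 11835216) had a score of 6.93 at 11813458, and ZNF404 (43872365 to 43883964) had 6.24 at 43873307. Their summits lay 815 and 942 bases from the nearer end, so neither remained with a window of 500 bases. Neither gene had an SP1 summit at an end, and no ZNF gene of the chromosome had both (0 of 246, upper limit 1.54%). Both were also called at 0 of the 1205 other genes of the chromosome, and at 32 of 18323 genes (0.175%) that are on other chromosomes and are not ZNF genes. The score of the ZNF440 summit was shared by 55 summits of the list, which holds 610 distinct scores.

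Summits inside gene spans, over 1000 bases from both ends of the span, were counted separately. H3K27ac was called there in 4 ZNF genes (1.63%, 0.634 to 4.11) and in 25 other genes of the chromosome (2.07%, 1.41 to 3.04), against 5.26% of all protein-coding genes. These were ZNF738 (6.93), ZNF850 (6.93), ZNF225 (5.56 and 5.59) and ZNF813 (6.93). SP1 was called there in 16 ZNF genes (6.5%, 4.04 to 10.3) and in 114 other genes of the chromosome (9.46%, 7.93 to 11.2), a difference of -2.96 points (-6.00 to 1.14), and 6.93% of all protein-coding genes had one. The ZNF genes are longer, with a median span of 23.2 kb against 12.8 kb. The strongest of these were the summit at 36214803 inside ZNF565 (22.5), which is the one at the end of ZNF146, and those inside ZNF83 (18.0) and ZNF320 (17.1). Of the 16 genes, 11 had no SP1 summit at an end. A place inside the span can still be a gene start. In ZNF320, ZNF331, ZNF442, ZNF444, ZNF581, ZNF799 and ZNF846 the SP1 summit lay within 1000 bases of a listed start inside the span. Gene spans do not tell exon from intron, so neither is given for any summit.

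The deposited ranked regions were set against gene spans. An SP1 region overlapped 5 of the 246 (2.03%, 0.871 to 4.67), against 72 of the 1205 other genes of the chromosome (5.98%, 4.77 to 7.46) and 4.44% of the 18323 genes that are on other chromosomes and are not ZNF genes. The best-ranked was the region at 55604665 to 55606374 over the start of the span of ZNF865, ranked 20 of 2356, followed by that at 37305882 to 37313362 at ZNF875, ranked 58. The others overlapped ZNF565, ZNF829 and ZNF584. An H3K27ac region overlapped 5 ZNF genes as well (2.03%), against 1.74% of the other genes of the chromosome and 4.97% of the 18323. The best was at 44119658 to 44119961 in ZNF225, ranked 681 of 2710.

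Other zinc-finger genes of the chromosome, chosen by symbols such as ZFP, ZSCAN, ZBTB and KLF, had an SP1 summit in 3 of 22 cases (13.6%, 4.75 to 33.3). The share was 13.7% over all protein-coding genes and 30.04% over the 1205 non-ZNF genes of the chromosome, which include the 22. The 3 were ZBTB32 (13.5), ZFP36 (11), which encodes an mRNA-binding protein with fingers of another type, and ZSCAN22 (8.76). Of 26 genes for partners of KRAB zinc-finger proteins and related silencing factors, 10 had one (38.5%, 22.4 to 57.5), with a median score of 12.5, where 13.7% of all protein-coding genes had a summit. DAXX, a histone H3.3 chaperone gene, scored 21.7, CBX5, for a heterochromatin protein, 20.4, and ATF7IP, for a partner of SETDB1, 16.1. TRIM28 itself (chromosome 19, 58544064 to 58550715) scored 16.0 at 71 bases from an end, just beyond the cluster from ZNF264 to ZNF446. SETDB1 scored 6.38. No gene of either list had an H3K27ac summit at an end (0 of 22 and 0 of 26), where 0.848% of all protein-coding genes had one.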

How the data were processed

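The CUT&RUN libraries of H1299 cells comprised 1 each for SP1, H3K27ac and IgG, and the lists of the first 2 were used. The authors deposited summit lists scored on a −log10 scale (p-value or q-value), as judged from the values, and region lists whose score column holds the rank. The lowest summit score was just above 3 in both. The build hg38 and the tools deepTools 3.4.1 and cutadapt 2.5 are listed per the submitters' processing notes. The sources used here name no aligner, peak caller or control for calling, and do not say how reads that map to several places were handled, which bears on duplicated genes. Depth is unknown.

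Gene spans and promoters came from RefSeq tables (GRCh38.p14). Shares and intervals were computed with statsmodels 0.14.6 in Python 3.11.15, and the search was tested on simulated summits. No p-value was computed. Genes named are the 12 with the highest SP1 score, all with H3K27ac at an end, the highest of each cluster of at least 5, the 2 nearest inside and outside the distance limit, and up to 4 from each other list. Further ZNF genes named as neighbours, examples or region holders were chosen after their values were seen. The genes, lists and measures were chosen with earlier results of these data known. Alternatives covered distance, score, summit assignment, strand, cluster gap and motif.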

Additional observations from a re-analysis of the deposited data

How the results depend on the processing

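No paired analysis was possible because each antibody had a single library. Of 41 alternative values, 34 stayed within the 95% interval of the value reported (medians and the spread over clusters, within 1.5 times) and 7 moved. Without weaker summits the share of ZNF genes with SP1 was 22.4% (above the list median) and 13.0% (above the upper quartile), lower by construction. With the upper quartile the median score was 15.4, and the difference from other genes of chromosome 19 was -5.66 points (-9.97 to -0.445). That difference had no settled sign elsewhere, running from -4.05 (within 2500 bases) to 4.87 (nearest end only), and it was 14.5 against genes inside the cluster spans. The excess over ZNF genes of other chromosomes lay between 6.16 and 13.7 points, above 0 in every interval of the 6 alternatives run. Within 500 bases the H3K27ac share was 0%. The spread between the highest and lowest cluster was 67.4 points, and 42.7 with a gap of 500 kb, which joins clusters. Settings without the ZNF737 to ZNF91 cluster, where the SP1 share was 33.9%, and with only the 187 starts near a span end, where the GC box difference was 16.6 points, were chosen after seeing the data. Other causes were not tested, and unknown depth limits every count.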
